A study of Homo sapiens with 11 samples.

Results

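The genes described here encode the proteins of the cytoplasmic ribosome. They were chosen by name, as gene symbols made of RPL or RPS and a number with an optional A, X or L at the end, or RPLP0, RPLP1, RPLP2 and RPSA. A gene was taken only where a probe set of the array carries that symbol alone, pseudogenes were left out, and the probe set with the highest mean over all lines stood for the gene. This gave 56 of the 19775 genes read in this way, 35 of the large subunit and 21 of the small subunit, measured by 117 probe sets. Symbols of 15 further ribosomal protein genes, RPL5, RPL10, RPLP0 and RPSA among them, occur only in probe sets that carry several symbols and were not analysed here.

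Expression was measured in 11 established cell lines of T-cell acute lymphoblastic leukemia (T-ALL), a malignancy of arrested T-cell progenitors, with 1 HG U133 Plus 2.0 array of total RNA for each line. The NKL-positive lines LOUCY, PEER, JURKAT, ALL-SIL, HPB-ALL and CCRF-CEM express homeobox genes of the NKL subclass, transcription factors of development, while the NKL-negative lines SUP-T1, MOLT-16, MOLT-14, MOLT-4 and CML-T1 do not. The labels name no treatment, each line is a single leukemia kept in culture, and the line is the replicate. The comparison of the groups took 5 NKL-positive lines against 5 NKL-negative lines, since the study's own comparison leaves JURKAT out, and the other descriptions took all 11 lines.

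Ribosomes translate messenger RNA into protein. The small subunit reads the message and the large subunit joins the amino acids. Most ribosomal proteins are present in 1 copy per subunit, so that cells make these proteins in matched amounts. Their messages are among the most abundant in growing cells and mostly begin with a run of pyrimidines that places their translation under growth signals. Some members have paralogs of restricted expression, such as RPL3L in muscle and RPL10L and RPL39L in testis. Inherited lesions in several members cause Diamond-Blackfan anemia, and acquired lesions of RPL5, RPL10 and RPL22 occur in T-ALL.

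The values are RMA values on the log2 scale, so that 1 unit is a doubling of the signal. The array medians lay between 4.63 and 4.76 and the highest values between 14.37 and 14.57. All 8 T-cell markers were above the array median in 7 lines and 7 of 8 in the other 4, where CD2 was the one below it. Of 3 B-cell markers 1 to 2 were above it, of 4 myeloid markers 0 to 2 and of 2 erythroid markers 0 to 1. The summed level of the T-cell markers, on the log2 scale, was 13.54 to 14.27 in the NKL-positive and 13.58 to 14.08 in the NKL-negative lines. The poly-A control probe sets read at background in MOLT-16, CML-T1 and HPB-ALL, at a mean of 3.02 to 3.10, against 6.09 to 9.59 in the other lines.

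Ribosomal protein genes were read at high and nearly equal levels in all 11 lines. Of the 56 genes, 49 were at a log2 value of 11 or more in every line, with values from 11.92 to 14.50. The SD over the 11 lines had a median of 0.173 over the ribosomal protein genes and of 0.512 over all genes. It was 0.162 for the small subunit and 0.198 for the large subunit, and 35 members had an SD below 0.2. A total of 52 members were above the array median in all 11 lines, against 41.6% of all genes.

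The 4 genes with the smallest spread were RPL37A, RPL39, RPS18 and RPL41. RPL37A, a zinc-binding protein of the large subunit, ranged from 14.19 in CCRF-CEM to 14.35 in HPB-ALL and SUP-T1. RPL39, which lines the tunnel where the new protein leaves the ribosome, ranged from 13.94 in MOLT-14 to 14.14 in JURKAT. RPS18 ranged from 13.99 to 14.21 and RPL41, the smallest ribosomal protein, from 14.25 to 14.50. These values lie close to the highest values of the arrays, and the part of that in the small spread was not tested.

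Diamond-Blackfan anemia genes among the members were 11, with a median SD of 0.152. RPL11, which also binds the p53 regulator MDM2, ranged from 13.06 in MOLT-4 to 13.71 in CML-T1. RPS27 ranged from 13.55 in LOUCY to 14.16 in SUP-T1. The acidic stalk protein RPLP1 was at 13.59 in MOLT-4 and at 13.76 to 14.15 in the other 10 lines. MOLT-4 was the lowest line for RPL11 and RPLP1, while over all members it had the lowest value in 7 and the highest in 7.

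The other 7 members were RPL10L, RPL27A, RPL36A, RPL39L, RPL3L, RPLP2 and RPS27L. RPL3L was at 3.04 to 4.48 and below the array median in every line. RPS27L, a p53-responsive paralog of RPS27, was at 10.32 to 11.52. RPL27A was at 7.17 to 9.30, RPLP2 at 4.88 to 6.61, RPL10L at 4.15 to 6.41 and RPL36A at 4.10 to 5.73. For RPL27A, RPL36A, RPL39L, RPL10L and RPL3L the array holds 1 probe set with the symbol alone, so that the rule gave no second reading of the gene. Probe sets with several symbols name 22 genes of the rule, and 15 of these have no probe set of their own. The rest are members, whose readings in those probe sets were not used. The low levels given here thus hold for the probe sets taken, and their cause was not tested.

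**Figure D1:**
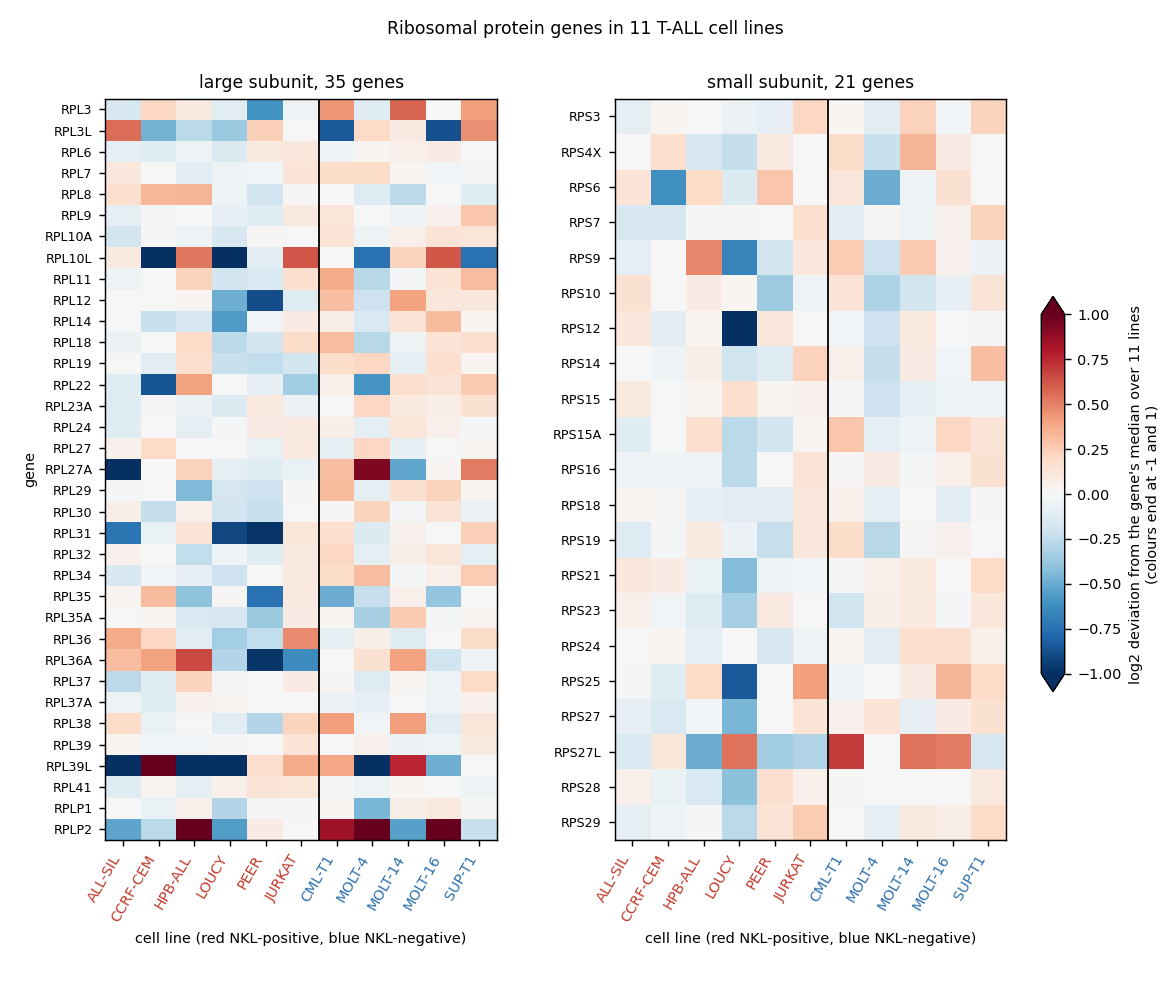
Colours give, for each ribosomal protein gene (vertical axis) and cell line (horizontal axis), the log2 deviation from the gene's median over 11 lines, ending at -1 and 1. Most cells are pale, LOUCY is blue in 46 of 56 genes, and RPL39L, RPL10L, RPLP2 and RPL27A show strong colours in single lines.

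The start sites of the members were compared with those of all genes, because the pyrimidine run at the start is the feature that ties these genes together. RefSeq (GRCh38.p14) gave the 30 bases from 15 before to 15 after the start on the gene's strand for 48 of the 56 members. A total of 4 pyrimidine hexamers were searched in 27305 promoters, namely TCTTTC, then CTTTCC, then CTCTTT and then TTCCTT, which overlap each other in longer runs. At least 1 of them was in 26 of 48 members (54.2%) and in 4.12% of all promoters. On the opposite strand it was in 0 members and in 3.14% of all promoters. The single hexamers were in this order in 9, 12, 10 and 11 members, and in 1.33%, 1.48%, 1.27% and 1.31% of all promoters. A match describes the letters only.

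Sequences of 9 members are shown, with the searched hexamers in capitals. RPL39 and RPS18 are among the genes with the smallest spread, RPS12, RPL31, RPS6 and RPL22 are high genes with single low lines, RPS27 and RPS27L are paralogs, and RPL10L is a dim member.
RPL39 (chrX:119791616-119791645, minus strand): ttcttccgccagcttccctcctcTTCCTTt
RPS18 (chr6:33272060-33272089, plus strand): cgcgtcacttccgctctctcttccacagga
RPS27 (chr1:153990747-153990776, plus strand): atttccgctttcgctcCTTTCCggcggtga
RPS12 (chr6:132814554-132814583, plus strand): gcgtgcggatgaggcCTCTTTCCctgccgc
RPL31 (chr2:101002274-101002303, plus strand): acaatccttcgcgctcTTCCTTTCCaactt
RPS6 (chr9:19380222-19380251, minus strand): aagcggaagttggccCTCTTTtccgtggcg
RPL22 (chr1:6199581-6199610, minus strand): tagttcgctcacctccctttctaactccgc
RPS27L (chr15:63157463-63157492, minus strand): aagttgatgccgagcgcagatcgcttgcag
RPL10L (chr14:46651767-46651796, minus strand): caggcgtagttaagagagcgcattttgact
RPS27 and its paralog RPS27L thus differ in the searched letters. Of the 4 genes with the smallest spread, RPL37A and RPL39 had a match and RPS18 and RPL41 had none. RPL22 and RPS18 carry other pyrimidine runs around the start that the 4 hexamers do not cover.

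A line was then compared with the others over all members. Each value was set against the gene's own median over the 11 lines, and the median of these deviations was taken over the 56 genes. LOUCY, a line of immature phenotype, had the lowest median at -0.17, with 46 genes below their median and 7 above it. MOLT-4 followed with -0.09 (34 below, 18 above) and PEER with -0.08 (33 below, 15 above). CCRF-CEM at -0.02, ALL-SIL at -0.01 and HPB-ALL at 0.00 were near the middle. MOLT-16 at 0.04, CML-T1 at 0.05 and MOLT-14 at 0.05 were slightly above it, and SUP-T1 at 0.08 and JURKAT at 0.08 were highest. The corresponding median of all 19775 genes was between -0.03 and 0.01 in every line.

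In LOUCY both subunits were low, with -0.24 over the 21 small subunit genes and -0.16 over the 35 large subunit genes. In PEER the small subunit genes had a median of 0.00 and the large subunit genes one of -0.11. LOUCY had the lowest of the 11 values in 19 members and PEER in 12. Over all genes, a line had the lowest value in 6.9% to 15.3% of the genes. SUP-T1 and JURKAT had the lowest value in 0 members each. With 1 array per line these differences between lines have no replicate and were not tested.

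Signs of RNA quality differed between the lines as well. The gap between the 3' and 5' probe sets of ACTB was 0.17 in LOUCY, the lowest of all lines, and 1.17 in MOLT-4, the highest. The mean of the ribosomal RNA control probe sets was 6.85 in LOUCY and 11.5 in MOLT-4, within a range of 5.67 to 11.8. The summed level of the B-cell markers was 8.61 in LOUCY and 5.93 to 7.76 in the other lines, with CD79B at 8.25 and MS4A1 at 3.38 in LOUCY. The part of these values in the low levels of LOUCY and MOLT-4 was not tested.

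**Figure D2:**
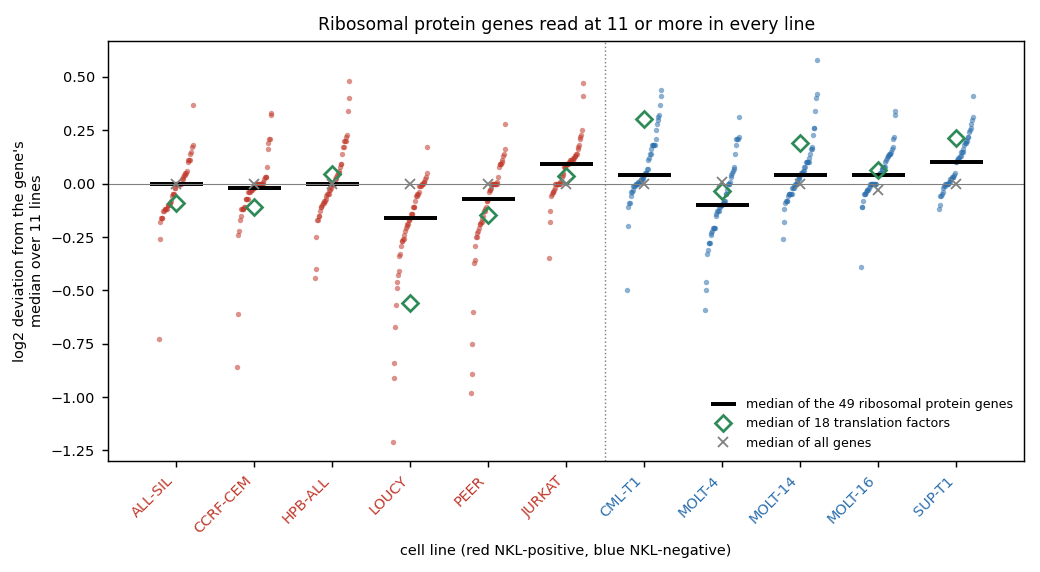
Points are the log2 deviations (vertical axis) of the 49 ribosomal protein genes at 11 or more in every line, with black bars at their median in each cell line (horizontal axis). Diamonds are the median of 18 translation factors and crosses that of all genes. LOUCY stands lowest for both ribosomal proteins (-0.16) and translation factors (-0.56).

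Genes that work with the ribosome differed in how they followed the lines. The 18 measured translation factors, whose messages also tend to start with pyrimidines, were lowest in LOUCY, at a median of -0.56 with 17 below their own median. They were highest in CML-T1, at 0.31 with 15 above. The 25 ribosome assembly factors had a median of 0.00 in LOUCY, of 0.46 in PEER with 22 above, and of -0.42 in CCRF-CEM with 20 below. The 11 genes of RNA polymerase I, which transcribes the ribosomal RNA, were lowest in CCRF-CEM at -0.57, with 9 below. The 75 mitochondrial ribosomal proteins were highest in PEER, at 0.26 with 56 above, where the large cytoplasmic subunit genes were at -0.11. They were lowest in MOLT-16, at -0.16 with 51 below.

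Single genes far below the other lines were searched next. Of 616 pairs of a member and a line, 10 lay at least 1 log2 unit below the median of the other 10 lines, in 6 genes. Over all genes this was true of 6.96% of the pairs. At least 1 such line was found for 10.7% of the members and 38.9% of all genes. Only 2 of the 10 pairs belonged to the 49 highly read genes, namely RPS12 in LOUCY and RPL31 in PEER. At least 1 log2 unit above the others lay 5 pairs in 2 genes, RPL39L and RPLP2, against 6.73% of all pairs.

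RPS12, a protein of the small subunit that senses ribosomal protein imbalance in insects, was at 12.64 in LOUCY. In the other 10 lines it was at 13.64 to 13.96, so that the gap of LOUCY to their median was -1.21. A second, dim probe set with the symbol RPS12 ranged from 4.59 to 6.81 and did not show this gap, with a gap of 0.07 for LOUCY. Among the 10 nearest measured genes on chromosome 6, 8 were below the other lines in LOUCY. Of these neighbours, 3 were above the array median in at least 6 lines, and SLC18B1 at -2.30, VNN2 at -1.30 and TBPL1 at -0.83 were all at least 0.5 below.

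RPL31, at the rim of the exit tunnel, was at 12.90 in PEER, 12.97 in LOUCY and 13.15 in ALL-SIL. In the other 8 lines it was at 13.74 to 14.12, and no value lay between 13.15 and 13.74. PEER lay just inside the limit of 1 log2 unit, and LOUCY, with a gap of -0.93, just outside it. The other 2 probe sets of RPL31 read low in these lines too, except for PEER in one of them. One of them was at 6.91 in PEER, 6.93 in ALL-SIL and 7.37 in LOUCY, against 8.47 to 10.64 in the other lines. The other was at 7.96, 6.84 and 6.98 in these lines, against 7.94 to 9.10. Of the 10 nearest genes on chromosome 2, 6 were below the other lines in PEER, 0 of them by 0.5 or more. In ALL-SIL 9 were below, 3 of them by 0.5 or more, and in LOUCY 4 were below, 3 of them by 0.5 or more. Above the array median in at least 6 lines were 6 of these neighbours. Of the 6, 2 were below in PEER, with a median of 0.32. In ALL-SIL 5 of the 6 were below, with a median of -0.295, and in LOUCY 3, with a median of -0.225.

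RPL39L, the paralog of RPL39, split the lines most widely, with an SD of 2.45, and was read by 1 probe set. It was at 3.16 in HPB-ALL, 3.32 in MOLT-4 and 3.34 in ALL-SIL, below the lower quartile of every array at 3.45 to 3.60. LOUCY was in between at 5.38. In MOLT-16 it was at 7.65, in SUP-T1 at 8.14, in PEER at 8.31, in JURKAT at 8.51, in CML-T1 at 8.53, in MOLT-14 at 8.90 and in CCRF-CEM at 9.16. The low and the high lines occurred in both NKL groups. RPL39 itself stayed within 13.94 and 14.14 in the same lines. Of the 10 nearest genes on chromosome 3, 4 to 7 were below the other lines in the 4 low lines, and 1 to 2 of them by 0.5 or more. Above the array median in at least 6 lines were 5 of these neighbours, of which 1 to 3 were below. Their medians were -0.405 in ALL-SIL, 0.315 in HPB-ALL, 0.03 in LOUCY and 0.375 in MOLT-4.

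RPL10L was at 4.15 in LOUCY and 4.17 in CCRF-CEM, against 5.03 to 6.41 in the other 9 lines. RPL36A was at 4.10 in PEER and at 4.44 to 5.73 elsewhere. RPL27A was at 7.17 in ALL-SIL and at 7.85 to 9.30 elsewhere. RPLP2, the partner of RPLP1 in the stalk, was at 6.61 in HPB-ALL, 6.44 in MOLT-4 and MOLT-16 and 6.29 in CML-T1, against 4.88 to 5.52 in the other 7 lines. Its second probe set was at 3.14 to 4.42, highest in MOLT-16, and was not higher in HPB-ALL and MOLT-4. The 3 lines with poly-A controls at background were among these 4 high lines, and the part of this in the high values was not tested.

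**Figure D3:**
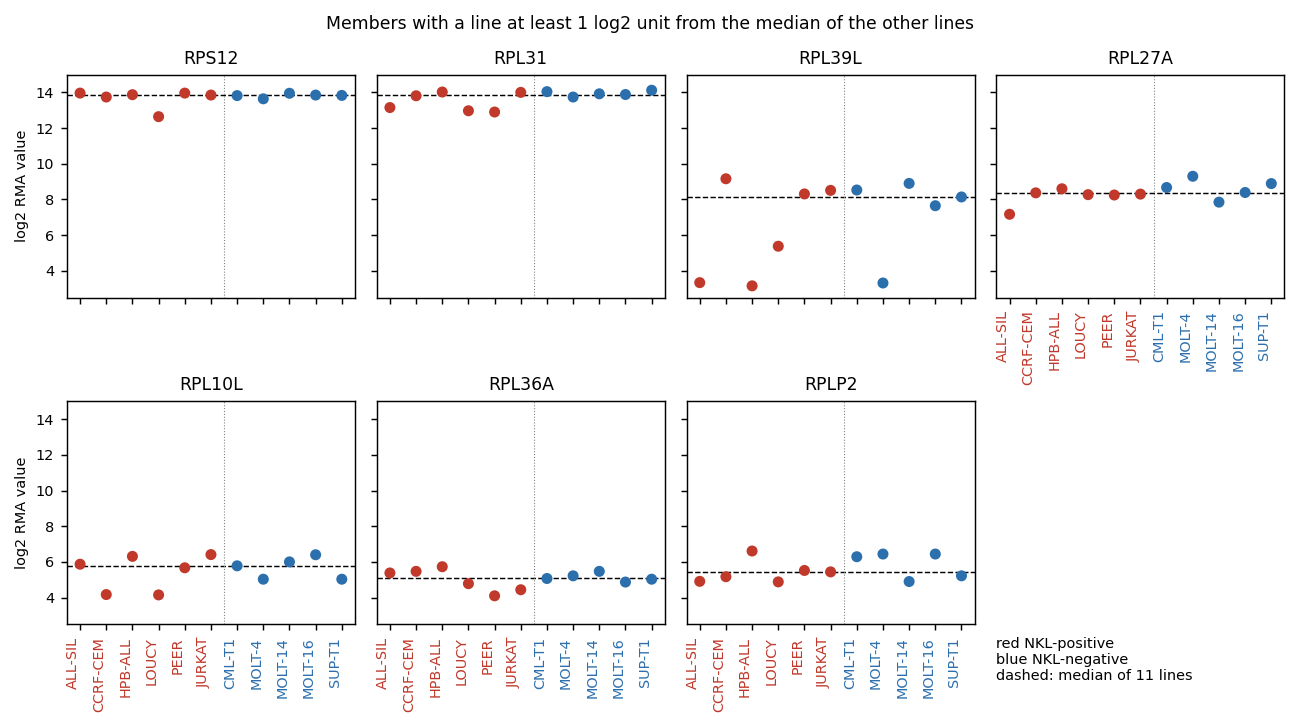
Log2 RMA values (vertical axis) of the 7 genes with a line at least 1 log2 unit from the median of the other lines, for each cell line (horizontal axis), with that gene's median as a dashed line. RPS12 is low in LOUCY at 12.64, RPL31 in PEER, LOUCY and ALL-SIL, and RPL39L in 4 lines.

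With a limit of 0.5 log2 unit, 36 pairs in 17 members lay below the other lines, against 18.1% of the pairs of all genes. Among the 49 highly read genes these were 16 pairs in 10 genes, of which LOUCY had 6, PEER 4, CCRF-CEM and MOLT-4 2 each, and ALL-SIL and CML-T1 1 each. HPB-ALL, MOLT-14, MOLT-16, SUP-T1 and JURKAT had 0. A total of 38 members had no line at or past 0.5 in either direction, which was not counted over all genes. Of the genes described here, RPS6, RPL12, RPS25, RPS9, RPL14 and the neighbouring genes were named after their values were seen.

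RPL22, which also binds Epstein-Barr virus RNA and is needed for early T-cells, was lowest in CCRF-CEM at 12.27, with a gap of -0.89 to the median of the other lines. MOLT-4 followed at 12.54 and JURKAT at 12.78, and the other 8 lines were at 13.01 to 13.53. All 5 probe sets of RPL22 were low in CCRF-CEM, with gaps of -1.20 to -0.84. In MOLT-4 only 3 of 5 were below, since the remaining probe sets read 11.52 and 11.29 there, within ranges of 9.64 to 11.94 and 10.09 to 12.12. Among the neighbours of RPL22 on chromosome 1, 6 were above the array median in at least 6 lines, and 4 of them were at least 0.5 below the other lines in CCRF-CEM, ICMT at -1.20 and NPHP4 at -1.11 among them. In MOLT-4 the same neighbours had a median of 0.09.

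RPL22L1, the paralog that can replace RPL22 and lies outside the naming rule, varied more than RPL22, with an SD of 1.37. It was highest in MOLT-4 at 12.76, followed by CML-T1 at 12.33, MOLT-16 at 11.74, CCRF-CEM at 11.19, JURKAT at 10.68 and MOLT-14 at 10.56. SUP-T1 at 9.46, ALL-SIL at 9.27, LOUCY at 9.21, HPB-ALL at 9.09 and PEER at 9.06 were low. The 3 lines with the lowest RPL22, by the probe set taken for it, were among the 6 lines with high RPL22L1. In the RPL22 probe sets that were not low in MOLT-4, CCRF-CEM, LOUCY and PEER were lowest. They were at 9.74, 9.64 and 10.17 in one and at 10.09, 10.30 and 10.74 in the other. LOUCY and PEER had low RPL22L1. CML-T1, MOLT-16 and MOLT-14 had high RPL22L1 with RPL22 at 13.18, 13.26 and 13.30.

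**Figure D4:**
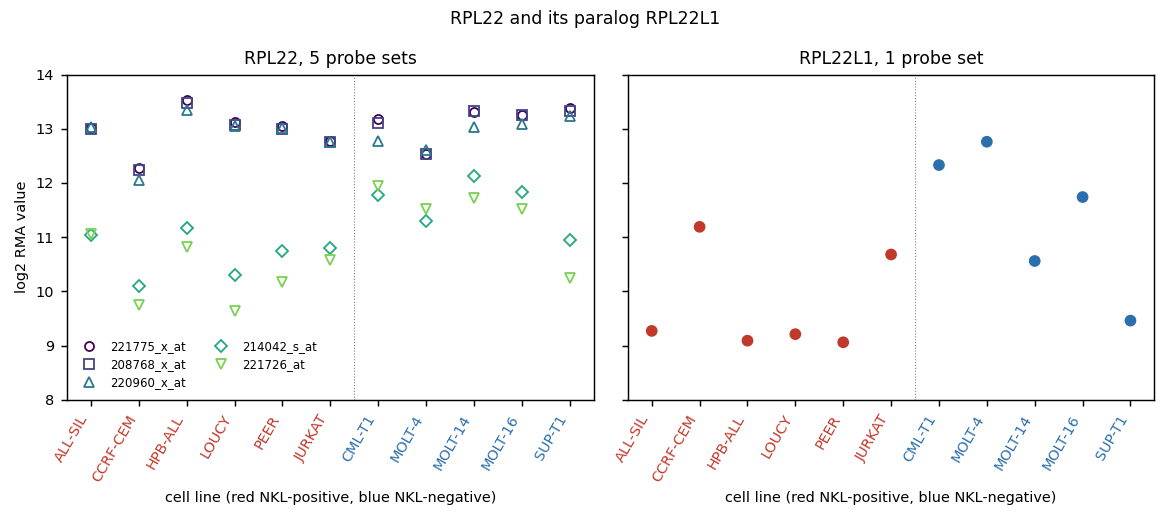
Log2 RMA values (vertical axis) of the 5 probe sets of RPL22 and the 1 probe set of RPL22L1 in each cell line (horizontal axis). CCRF-CEM is low in all RPL22 probe sets, MOLT-4 in 3 of 5, and MOLT-4 has the highest RPL22L1 at 12.76.

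RPS6, the substrate of the S6 kinases, was at 13.30 in CCRF-CEM and 13.41 in MOLT-4 and at 13.77 to 14.19 in the other lines. Its other 2 bright probe sets were also lowest in these lines, at 13.11 and 13.17 for one and at 13.26 in both for the other. Of 6 neighbours on chromosome 9 above the array median in at least 6 lines, 3 were at least 0.5 below in CCRF-CEM, namely FOCAD, MLLT3 and HAUS6, and PLIN2 was 2.34 above. In MOLT-4 1 of the 6 was at least 0.5 below, with a median of -0.16. RPL35, at the exit tunnel, was at 12.45 in PEER and 12.70 in CML-T1 within a range up to 13.52 in CCRF-CEM. In PEER 5 of 7 such neighbours of RPL35 were at least 0.5 below, with a median of -0.89 over the 7. In CML-T1 1 of the 7 was at least 0.5 below, with a median of 0.03.

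In PEER, RPL12 was at 12.44 and RPL3, a core protein of the catalytic center, at 12.64, against 12.84 to 13.73 and 13.08 to 13.82 in the other lines. Of the neighbours of RPL12, 7 of 10 were below the other lines in PEER, with a median of -0.30. Above the array median in at least 6 lines were 7 of them, with a median of -0.02, and ZBTB34, RALGPS1 and LRSAM1 were at least 0.5 below. Neighbours of RPL3 had 0 genes at least 0.5 below in PEER. In LOUCY, RPS25 was at 12.26 against 12.98 to 13.51 elsewhere. RPS9 was at 12.28 there against 12.74 to 13.43, and RPL14 at 12.87 against 13.22 to 13.76. Neighbours of RPS25, RPS9 and RPL14 above the array median in at least 6 lines had medians of 0.35, 0.33 and 0.40 in LOUCY. Over the 10 nearest genes the medians were 0.38, 0.43 and 0.19, so that the neighbours as a group were not low with these genes.

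Finally, the members were compared between 5 NKL-positive and 5 NKL-negative lines. No member passed the test of limma at an adjusted p of 0.05, and the smallest adjusted p was 0.981. Over all probe sets 5 of 54613 did (0.00916%). At an unadjusted p under 0.05, 1 member was lower (RPL31) and 0 were higher, where 2.63% of all genes were lower and 2.63% higher. For members of small spread these p-values of limma rest mostly on a spread shared by all probe sets. The groups did not overlap for 1 gene that was higher in the NKL-positive lines, RPS15, and for 0 that were lower, against 0.379% and 0.526% of all genes.

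Most differences were small and negative. In the NKL-positive lines 47 members had a lower mean and 9 a higher one, with a median difference of -0.11, while 49.8% of all genes had a higher mean and the median of all genes was 0.00. The small subunit had 18 lower and 3 higher with a median of -0.11, and the large subunit 29 lower and 6 higher with a median of -0.14. The difference was under 0.2 in size for 41 members, which was not counted over all genes. All members share the arrays of the same lines, so that their number adds no replicates. Without LOUCY the median difference was -0.08, with 12 members higher, and without SUP-T1 it was -0.10, with 13 higher. Without MOLT-4 it was -0.15, with 6 higher.

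Signs of RNA quality and a B-cell marker differed between the groups in the same 10 lines. The gap between the 3' and 5' probe sets of ACTB was 0.17 to 0.94 in the NKL-positive and 0.43 to 1.17 in the NKL-negative lines, with means of 0.508 ± 0.281 and 0.880 ± 0.280 (SD). The ribosomal RNA control probe sets were at 5.67 to 10.28 and 8.53 to 11.78. The summed level of the 3 B-cell markers was 6.38 to 8.61 and 5.93 to 7.76, with CD79B at 5.56 to 8.25 and 3.64 to 6.64. The other markers did not follow CD79B, with MS4A1 at 3.38 to 4.54 and 3.34 to 6.54. CD22 was at 3.71 to 6.24 and 3.85 to 6.33. These ranges overlap between the groups, and the part of these values in the lower means of the members was not tested.

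Lines with and without poly-A controls at background were also taken apart. Among the 7 lines with these controls the median difference was -0.14 with 7 members higher. Among the 3 lines without them, 1 NKL-positive and 2 NKL-negative, it was -0.03 with 21 members higher, and the median of all genes was 0.05 there.

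RPL31 had the smallest p of the members. In the NKL-positive lines it was at 13.15, 13.81 and 14.02 in ALL-SIL, CCRF-CEM and HPB-ALL, at 12.97 in LOUCY and at 12.90 in PEER. In the NKL-negative lines it was at 14.04 in CML-T1, at 13.74, 13.92 and 13.88 in MOLT-4, MOLT-14 and MOLT-16, and at 14.12 in SUP-T1. The groups overlap, since CCRF-CEM and HPB-ALL read like the NKL-negative lines. The difference was -0.57 with an SE of 0.248 and an adjusted p of 0.981 by limma, and all 3 probe sets had a negative difference, which was -0.99 for their mean. Among the 3 lines without poly-A controls it was 0.06. JURKAT, left out of the comparison, lay within the range of the NKL-negative lines.

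RPS15, of the small subunit head, was at 13.97, 13.87, 13.90, 14.04 and 13.90 in the NKL-positive lines in the same order, and at 13.86, 13.66, 13.79, 13.83 and 13.83 in the NKL-negative lines. The highest NKL-negative value was 0.01 below the lowest NKL-positive one, and the difference was 0.14 with an SE of 0.143 and an adjusted p of 0.981. A second, dim probe set had a difference of -0.04. RPL8, of the catalytic center, had the largest positive difference at 0.22 with an SE of 0.170 and an adjusted p of 0.981.

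RPL39L had the largest difference in size, at -1.44 with an SE of 1.40 and an adjusted p of 0.981. It was at 5.87 ± 2.77 (SD, n = 5) in the NKL-positive and 7.31 ± 2.28 (SD, n = 5) in the NKL-negative lines, so that the spread within a group exceeded the difference. The difference was -2.44 without MOLT-4, -2.26 without CCRF-CEM, -0.81 without ALL-SIL and -0.76 without HPB-ALL. Where only lines with poly-A controls above background were taken it was -0.24. RPL27A differed by -0.49, RPLP2 by -0.44 and RPL10L by -0.41, each with an adjusted p from 0.981 to 0.982 in limma. These values moved with single lines. RPL27A was at -0.25 without ALL-SIL and -0.32 without MOLT-4, and RPLP2 at -0.74 without HPB-ALL and -0.68 without MOLT-14. RPL10L was at -0.68 without HPB-ALL, -0.23 without MOLT-16, -0.15 without CCRF-CEM and -0.14 without LOUCY. RPL3L at 0.13, RPL35 at 0.06 and RPS10 at 0.04 complete the genes with the largest positive values. RPL35, RPL3L and RPS10 turned negative when single lines were left out, at -0.0635, -0.0395 and -0.0245 at the lowest.

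**Figure D5:**
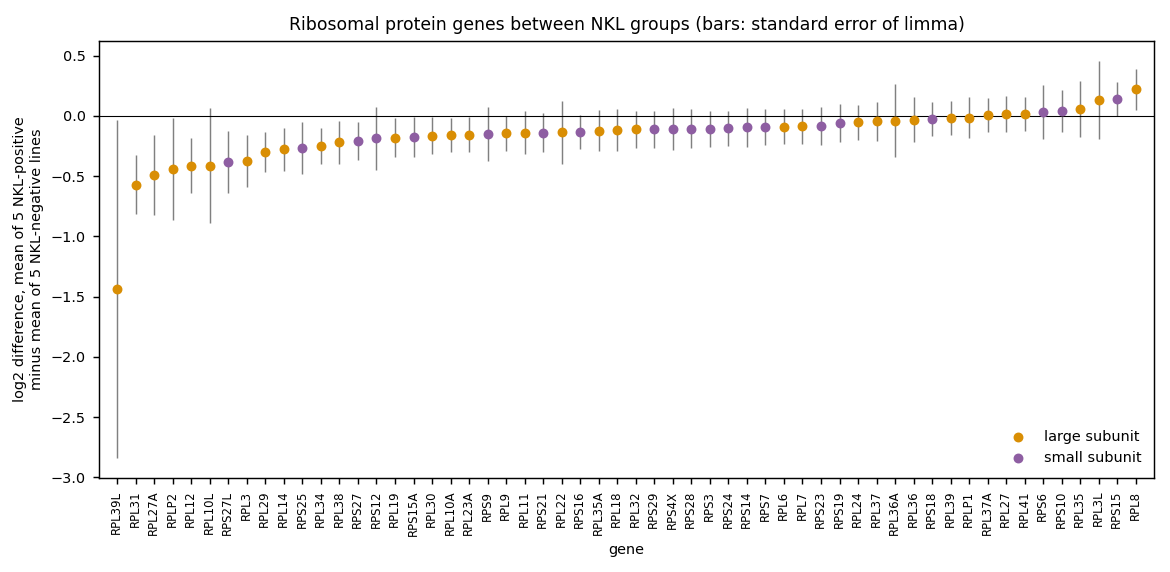
Log2 difference between the mean of 5 NKL-positive and that of 5 NKL-negative lines (vertical axis) for the 56 genes (horizontal axis). Bars are the standard error from limma, which is drawn toward a value shared by all probe sets. Of the 56 points 47 lie below 0, and RPL39L at -1.44 has the widest bar.

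Other lists of the translation apparatus held 0 called genes as well. Of 18 translation factors 15 were lower and 3 higher in the NKL-positive lines, with a median difference of -0.31. The initiation factor EIF3H was at -0.73 (adjusted p 0.803), EIF2S3 at -0.88 (adjusted p 0.981) and EIF3E at -0.56 (adjusted p 0.981). With the mean over a gene's probe sets EIF3H was at -0.25 and EIF3E at -0.13. EIF2S3 was at -0.54 where only lines with poly-A controls above background were taken. Of 75 mitochondrial ribosomal proteins 57 were higher and 18 lower, with a median of 0.13. MRPL13 was at 0.54, MRPL45 at -0.59 and MRPS31 at -0.42, each with an adjusted p of 0.981, and MRPS31 was at -0.10 with the mean over its probe sets.

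Among 25 assembly factors 15 were higher and 10 lower, with a median of 0.07. EIF6, which keeps the subunits apart, was at 0.49, UTP20 at 0.56 and NOB1 at -0.41, each with an adjusted p of 0.981. Without HPB-ALL NOB1 was at -0.27, and UTP20 was at 0.30 without MOLT-4 and 0.33 without PEER. Among 11 genes of RNA polymerase I 6 were higher and 5 lower, with a median of 0.04, and POLR1D was at -0.86 (adjusted p 0.677), POLR1B at 0.54 and POLR1E at 0.36. With the mean over probe sets POLR1D was at -0.20, POLR1B at 0.22 and POLR1E at 0.64, and POLR1B was at 0.82 without CCRF-CEM and 0.35 without PEER. Of 5 ribosomal proteins outside the naming rule 1 was higher and 4 lower, with a median of -0.17. RPL22L1 was at -1.81 with an SE of 0.649 and an adjusted p of 0.981, RPL26L1 at -0.37 and RPL36AL at -0.17. RPL26L1 was at -0.58 without PEER, and RPL36AL at -0.30 without CML-T1, -0.27 without MOLT-4 and -0.04 without MOLT-16. Of the 11 Diamond-Blackfan anemia genes, which are members, 9 were lower and 2 higher, with a median of -0.11.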

How the data were processed

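Expression of 11 T-ALL cell lines was profiled on HG U133 Plus 2.0 arrays, 1 per line. The authors applied RMA background correction and quantile normalization (affy and limma, versions not given in the sources used here) and deposited log2 values per probe set. The methods also name a ratio to the sample mean, which these values do not show. Quantile normalization gives all arrays nearly the same distribution, so that a shift shared by most genes cannot be seen, and differences between the brightest probe sets may be compressed. No RMA value carries a detection call, and precision is limited by the number of arrays. Values were used as deposited, all 11 columns were mapped, and no columns were left out. The highest correlation between arrays was 0.943, and 0 pairs were identical. The 62 control probe sets were left out.

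Symbols came from the platform annotation (41091 probe sets with 1 symbol, 1801 with several, 11721 with none). Of the members, 15 were read from a probe set ending in _x_at and 28 from one ending in _s_at, which may bind related transcripts such as those of pseudogenes, and 13 from one ending in _at alone.

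Groups were compared with limma 3.58.1 in R 4.3.3 (lmFit and eBayes, two-sided, no covariates, no filter on low values), with Benjamini-Hochberg adjustment over 54613 probe sets at 0.05. The p-values rest on the spread between lines, which limma draws toward a value shared by all probe sets. For members of small spread the SE comes mostly from that shared value. RPL39, for example, had an SE of 0.139 with SDs of 0.021 and 0.066 within the NKL-positive and NKL-negative lines. The procedure was tested on simulated data. Other steps used Python 3.11.15 with pandas 2.3.3, numpy 2.4.6 and matplotlib 3.10.9. Deviations, and gaps of 1 log2 unit to the median of the other lines, carry no test. Neighbours were the 5 nearest measured genes on each side in RefSeq order, and those above the array median in at least 6 lines are given apart. Paralog proteins were not analysed here.

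Named genes were members with a gap of 1 log2 unit, the 8 with the largest and 4 with the smallest SD, the 5 with the largest NKL difference in each direction, those at an unadjusted p under 0.05 or without overlap, RPL11, RPL22, RPLP1, RPLP2, the paralogs, and the 3 genes of each other list with the smallest p. The members, lists and rules were chosen with earlier results of these data known.

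Alternatives were all 11 lines, each line left out, median centring, repeated quantile normalization, only probe sets above the median of probe set means, array weights, an intensity trend, averaged probe sets of a gene, probe sets without _x_at or _s_at, a term for the lines with poly-A controls at background, only the lines with these controls, gaps of 0.5 and 2, every probe set of a gene having to pass the gap, and the mean in place of the median over genes.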

Additional observations from a re-analysis of the deposited data

Results flagged for a closer look

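In each NKL group of 5 lines, the highest and lowest values of 22 genes were compared with the rest by Dixon's ratio. Of 44 groups, 5 held a value whose gap to the nearest line, divided by the range of the group, was above 0.71. Chance flags about 1 in 20 groups, but several of these genes, RPS12, RPL27A and RPL39L among them, were chosen because a line stood far from the others, so that the count cannot be read against that rate. RPS12 was at 12.64 in LOUCY, where the next NKL-positive line was at 13.74 (ratio 0.833). RPL27A was at 7.17 in ALL-SIL and at 8.25 in the next line (ratio 0.755). MOLT-4 stood apart from the other NKL-negative lines in 3 genes. RPL22 was at 12.54 there against 13.18 (ratio 0.753), RPL39L at 3.32 against 7.65 (ratio 0.776), and RPLP1 at 13.59 against 14.06 (ratio 0.839). MOLT-4 also had the largest gap between the 3' and 5' probe sets of ACTB, at 1.17, and the part of this in the low values was not tested.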

How the results depend on the processing

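Of 727 values under alternatives, 700 were counted as kept. For a single gene this meant the same sign and side of the threshold, whatever the size of the difference. For a median it meant a move within the spread between lines, even with a change of sign. The median of RNA polymerase I genes, for example, went from 0.04 to -0.005 with repeated quantile normalization. Among the other values, 14 differences of single genes changed sign and 13 values moved further. The count of called members was 0 under every alternative run. RPS10 changed to -0.083 with the mean over its probe sets. RPS15 changed to -0.04 and EIF3E to 0.29 with probe sets without _x_at or _s_at. RPL35 and RPL3L changed to -0.0144 and -0.022 with a term for the lines with poly-A controls at background, and to -0.0375 and -0.26 without these lines. The 10 low pairs became 36 at a gap of 0.5, 4 at a gap of 2 and 31 with probe sets without _x_at or _s_at. The 5 high pairs became 23, 0 and 30, and 2 where every probe set had to pass. Under that last setting RPS12 in LOUCY, with 1 of 2 probe sets past the gap, was no longer a low pair. The same held for RPL31 in PEER, with 2 of 3. No low pair of the 49 highly read genes was thus left, only pairs of genes with 1 probe set. As a mean over genes ALL-SIL was at -0.13 and LOUCY at -0.28, and with the mean over probe sets MOLT-4 was at -0.005 and JURKAT at 0.00. The cause of these changes was not tested.

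With each line left out, the number of members higher was 6 to 13 and the median difference -0.15 to -0.08. The median was -0.301 to -0.0385 for ribosomal proteins outside the rule, 0.08 to 0.19 for mitochondrial ribosomal proteins, 0.01 to 0.19 for assembly factors, -0.08 to 0.18 for RNA polymerase I genes and -0.36 to -0.24 for translation factors. Low pairs were 7 to 10 and high pairs 4 to 6. RPL35 ranged from -0.0635 to 0.204, RPL3L from -0.0395 to 0.296 and RPS10 from -0.0245 to 0.123. No paired analysis was possible because no line belongs to both groups. Signals near the array background or the highest values limit the size of a difference that can be read.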
